A study of Rattus norvegicus with 4 samples.

Results

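The genes described here encode the liver's aldehyde, alcohol, aldo-keto and steroid dehydrogenases and reductases, with the short-chain retinol and carbonyl enzymes and aldehyde oxidase. They were taken by symbol (Adh, Aldh, Akr1, Akr7, Hsd3b, Hsd11b, Hsd17b, Dhrs, Rdh, Cbr and Aox genes, without Akr1d1), which gave 60 of the 10412 genes named on the array, measured by 64 probe sets. A gene with several probe sets was represented by the one with the highest mean. The RNA was total RNA from the livers of 4 male rats of the Sprague-Dawley strain, 10 to 12 weeks old and given no treatment. Each animal had an Affymetrix array of its own, so there is 1 group and no treated group to compare it with. Values are log2 signals given as mean ± SD over n = 4 rats. A difference between rats cannot be told apart from one between arrays.

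Most of these enzymes move hydride between substrates and NAD or NADP, while aldehyde oxidase uses a molybdenum cofactor. Alcohol dehydrogenases (ADH) oxidise alcohols to aldehydes, and aldehyde dehydrogenases (ALDH) oxidise aldehydes to acids. Aldo-keto reductases (AKR) and carbonyl reductases (CBR) mostly run the other way and reduce aldehydes and ketones with NADPH. Hydroxysteroid dehydrogenases (HSD) switch steroid hormones between active and inactive forms, and several act on fatty acids or bile acid precursors instead. Retinol dehydrogenases (RDH) and their DHRS relatives interconvert retinol and retinal. Much of this chemistry takes place on or inside the endoplasmic reticulum of hepatocytes, the compartment named in the study's title.

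Promoter sequence was at hand for 46 of the 60 genes, as the 250 bases before the RefSeq start site on the GRCr8 assembly. Akr7a2, a relative of Akr7a3, had an identical signal on all arrays, and such a value does not measure the animals. Promoters shown here are those of Akr7a2, of Adh1c (highest signal) and of 3 genes that differed widely between rats (Aldh1a1, Akr7a3 and Hsd17b10). They read 5′ to 3′ on the gene's strand, and capitals mark matches to the CCAAT box (CCAAT), the GC box (GGGCGG) or the HNF1 half-site (GTTAAT) on either strand.
Adh1c (chr2:229470453-229470702, + strand): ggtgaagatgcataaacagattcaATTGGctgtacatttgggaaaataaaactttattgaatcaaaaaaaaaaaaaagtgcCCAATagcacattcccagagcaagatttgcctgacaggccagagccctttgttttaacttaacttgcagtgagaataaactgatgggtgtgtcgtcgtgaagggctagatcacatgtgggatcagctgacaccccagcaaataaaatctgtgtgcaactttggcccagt
Aldh1a1 (chr1:227537370-227537619, + strand): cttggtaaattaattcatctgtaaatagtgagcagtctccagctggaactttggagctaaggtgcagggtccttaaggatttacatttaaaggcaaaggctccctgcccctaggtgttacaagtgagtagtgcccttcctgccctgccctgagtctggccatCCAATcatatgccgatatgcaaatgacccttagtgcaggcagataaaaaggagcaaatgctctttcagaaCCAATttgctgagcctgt
Akr7a3 (chr5:156876471-156876720, + strand): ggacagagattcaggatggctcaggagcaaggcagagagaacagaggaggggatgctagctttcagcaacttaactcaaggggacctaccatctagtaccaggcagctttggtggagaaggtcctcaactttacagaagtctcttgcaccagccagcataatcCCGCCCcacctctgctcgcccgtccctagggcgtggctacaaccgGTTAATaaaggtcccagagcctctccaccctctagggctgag
Akr7a2 (chr5:156835339-156835588, + strand): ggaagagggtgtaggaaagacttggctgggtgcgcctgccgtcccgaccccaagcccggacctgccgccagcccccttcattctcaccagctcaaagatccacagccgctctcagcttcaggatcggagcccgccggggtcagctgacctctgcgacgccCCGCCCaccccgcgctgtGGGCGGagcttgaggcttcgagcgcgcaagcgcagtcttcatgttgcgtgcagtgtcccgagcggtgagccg
Hsd17b10 (chrX:24568301-24568550, + strand): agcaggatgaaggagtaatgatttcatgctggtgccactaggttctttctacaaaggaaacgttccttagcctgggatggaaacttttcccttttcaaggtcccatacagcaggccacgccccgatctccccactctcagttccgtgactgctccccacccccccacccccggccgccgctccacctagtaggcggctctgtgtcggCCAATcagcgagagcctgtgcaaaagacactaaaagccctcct

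Adh1c and Aldh1a1 each held a pair of CCAAT boxes, those of Aldh1a1 starting 88 and 18 bases before the start site. Hsd17b10 held 1, starting 43 bases before it. The Akr7a3 window held 1 GC box and an HNF1 half-site, and that of Akr7a2 held 2 GC boxes. Over the 46 genes, 25 held a CCAAT box (54.3%), against 35.4% of 8611 promoters of genes on the array. A GC box was found in 20 (43.5%, against 56.2%), and a TATA box (TATAAA) in 4 (8.70%, against 8.36%). The HNF1 half-site was found in 2 (4.35%, against 4.35%) and the core of the HNF4 site (AAAGTCC) in 4 (8.70%, against 3.46%). The E-box CACGTG was in 0 of the 46, against 7.91%, which says only that these letters are not in these windows. The median ratio of observed to expected CpG was 0.52 in the 46 promoters and 0.71 in those of the array's genes. It was 0.55 for the 35 promoters of genes above background, against 0.76 for the array's genes above background. For the 11 promoters of genes below background it was 0.31. These shares are descriptions, and binding was not measured.

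Most of the 60 genes gave signal in liver. A gene was counted as above background if its mean exceeded 8.24, the 95th percentile of 98 probe sets of 77 genes typical of brain, muscle, testis or eye. This held for 45 of the 60 genes (75%), where 50.8% of all 10412 named genes passed, and the 45 lay above the level on each of the 4 arrays. Of the 60, 27 were in the brightest 10% of all named genes. The median signal of the 60 genes was 9.16, against 8.26 for all named genes. Among other drug-metabolising families, 30 of 40 P450 genes of families 1 to 4 were above background (75%) and 16 of 19 glutathione transferases (84.2%). These shares were not tested against each other. Signals of different probe sets are not relative amounts of RNA, so ranks between genes describe signal only.

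**Figure D1:**
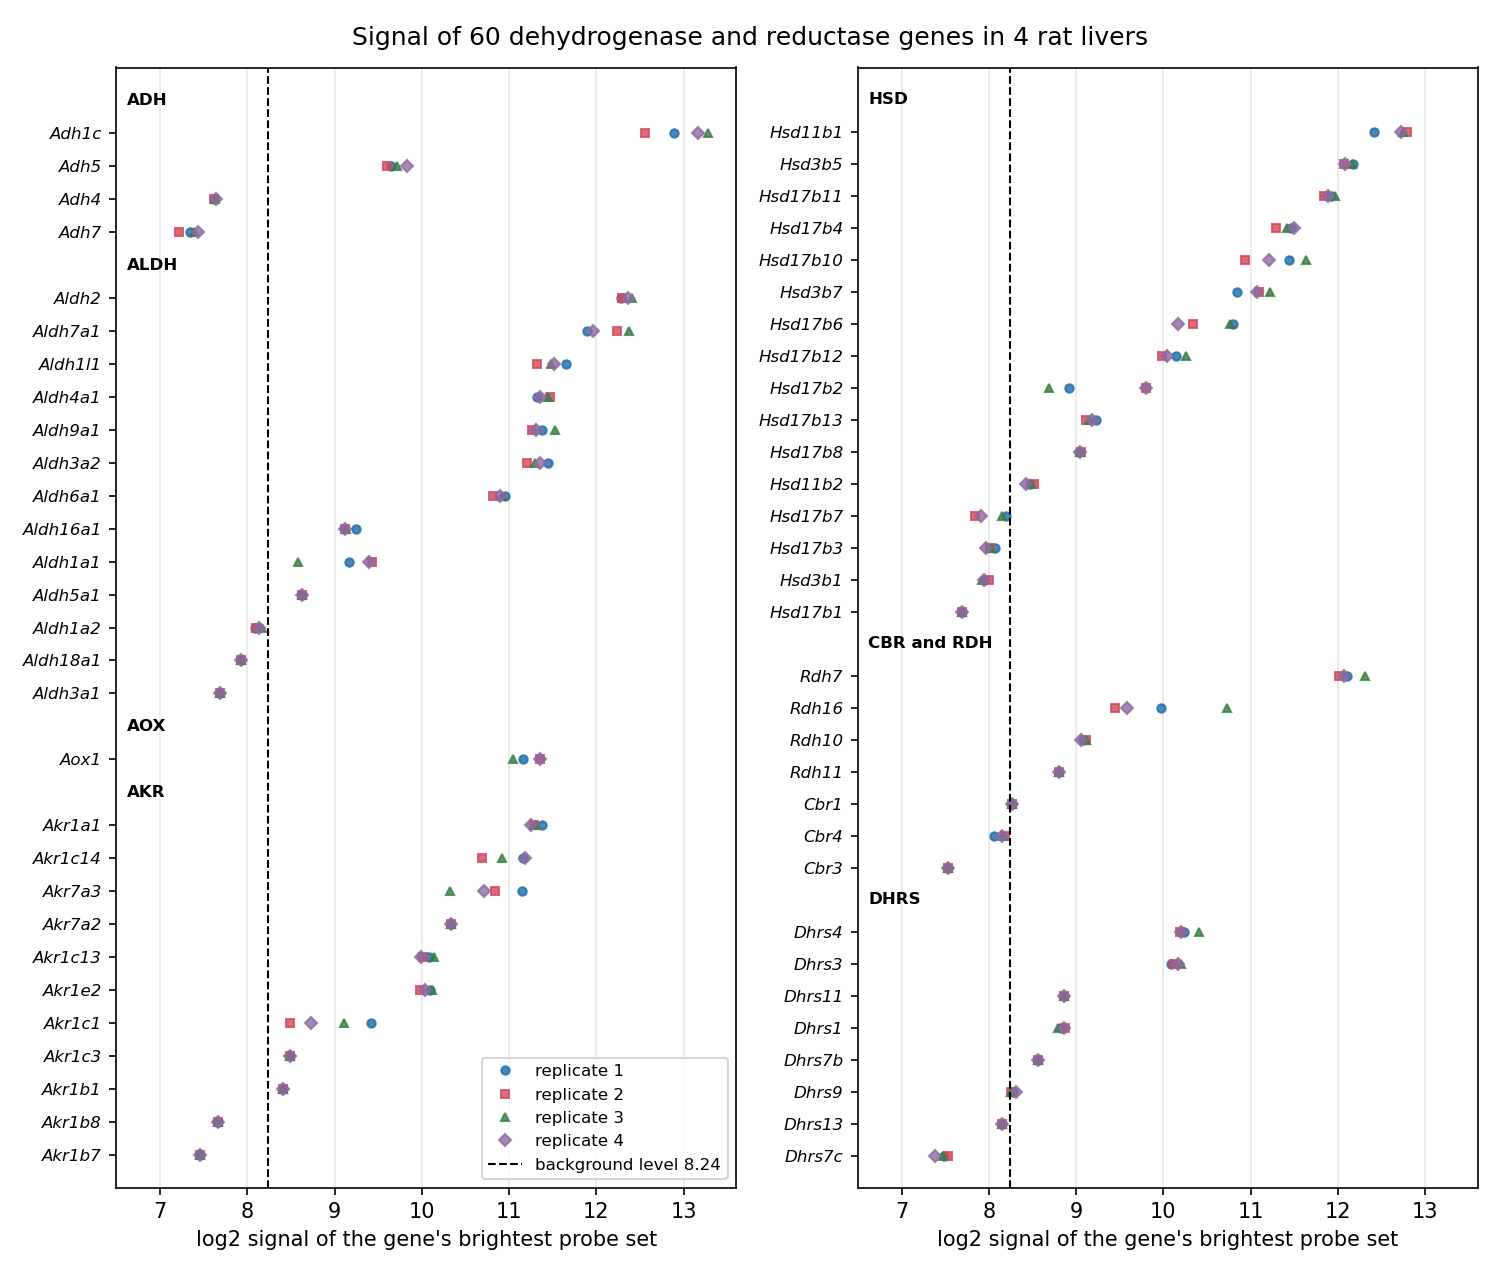
Log2 signal (horizontal axis) of the 60 genes, grouped by enzyme family and ordered by mean, with 1 marker per rat and the background level of 8.24 as a dashed line. The 45 genes to the right of the line lie there in all 4 rats, and Hsd17b2, Rdh16 and Akr1c1 show the widest spacing between rats.

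Several facts of the whole data set bear on these values. The liver label was borne out by its markers, since 10 of 10 hepatocyte markers were above background. So were 6 of 6 Kupffer cell markers, 5 of 9 stellate cell and fibroblast markers, 2 of 5 endothelial and 2 of 3 red cell markers. Markers of gut, pancreas and fat reached 1 of 7, those of bile duct cells 0 of 4 and those of lymphocytes and neutrophils 0 of 8. In bulk tissue, fewer cells of a type and less RNA per cell cannot be told apart. Many probe sets were flat, meaning equal to within 0.001 on all arrays. Of the 45 genes above background 8 were flat, against 35.3% of all genes above background, and an SD of such a gene does not measure the animals.

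Alcohol dehydrogenases gave the strongest and some of the weakest signals of the set. Adh1c, the class I enzyme that oxidises ethanol, had log2 signals of 12.89, 12.56, 13.28 and 13.17 in replicates 1 to 4 (12.98 ± 0.32, the highest mean of the 60). Replicate 2 was lowest and replicate 3 highest, a 1.66-fold range, and without replicate 2 the SD was 0.1996. Adh5, the class III enzyme that clears formaldehyde with glutathione, had 9.65, 9.60, 9.72 and 9.83 (9.70 ± 0.10), again lowest in replicate 2. Adh4, the class II enzyme, stayed below background at 7.63 ± 0.01, as did the stomach enzyme Adh7 at 7.34 ± 0.09. A gene below the level may still be transcribed, so these signals do not show that its RNA is absent. In the list of partners of ethanol and peroxide oxidation, 5 of 6 genes were above background, led by Cyp2e1 (13.40 ± 0.09) and catalase (Cat, 12.52 ± 0.05). Acss2, which turns acetate into acetyl-CoA, was lowest in replicate 2 too (8.93 against 9.52 to 9.79), as was Cyp2e1. Catalase was highest in that rat (12.58 against 12.46 to 12.53), and the other 2 genes above background were flat. Over all genes above background and not flat, 28.7% were lowest in replicate 2.

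Aldehyde dehydrogenases were above background for 10 of 13 genes, 7 of them in the brightest 10%. Aldh2, the mitochondrial enzyme that oxidises acetaldehyde, had 12.29, 12.29, 12.41 and 12.36 (12.34 ± 0.06), so the rats lay within 0.12 log2 units of each other. Aldh7a1, which acts in lysine breakdown, had 11.90, 12.24, 12.38 and 11.96 (12.12 ± 0.23), with replicates 2 and 3 above replicates 1 and 4. Without replicate 3 its SD was 0.18. The other bright members act in different pathways. Aldh1l1, which oxidises 10-formyltetrahydrofolate, had 11.49 ± 0.14, and Aldh4a1 of proline breakdown 11.40 ± 0.07. Aldh9a1 of carnitine synthesis had 11.37 ± 0.11 and the fatty aldehyde dehydrogenase Aldh3a2, anchored in the endoplasmic reticulum, 11.33 ± 0.10. Aldh6a1 of valine breakdown had 10.90 ± 0.06 on its brighter probe set, while its other probe set, at 10.52, was flat.

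The retinal dehydrogenase Aldh1a1 behaved differently from these. Its signals were 9.17, 9.43, 8.58 and 9.40 (9.14 ± 0.40), with replicate 3 below the other rats. Without replicate 3 its SD was 0.14, so its spread rests on that rat. Aldh1a2, which makes retinoic acid in the embryo, lay below background (8.12 ± 0.04), as did Aldh3a1, best known from the cornea (7.68, flat), and Aldh18a1 of proline synthesis (7.93, flat). Aldh5a1, which ends GABA breakdown, was above it and flat at 8.62. Aldh16a1 had 9.25, 9.12, 9.13 and 9.11 (9.15 ± 0.07), with replicate 1 apart from the other rats by a small step. It was the 1 gene of 37 that were above background and not flat to have 1 rat far from the rest, against 4.88% of all such genes.

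Partner genes of these pathways were mostly above background. This held for 5 of 5 folate enzymes, led by Ftcd (11.52 ± 0.16) and Shmt2 (10.37 ± 0.11), and for 9 of 10 genes of valine, proline and GABA breakdown, led by Hibadh (11.46, flat) and Gls2 (10.70 ± 0.14). All 6 measured genes of choline, betaine and carnitine metabolism were above it, led by Gnmt (11.67 ± 0.32) and Bhmt (11.08 ± 0.31). Of these 6, 5 were highest in replicate 3, as Aldh9a1 was. Over all genes above background and not flat, 32.9% were highest in that rat.

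Aldehyde oxidase (Aox1), which oxidises aldehydes and nitrogen rings with a molybdenum cofactor, had 11.16, 11.35, 11.05 and 11.35 (11.23 ± 0.15). Replicates 2 and 4 were the higher rats. All 6 genes listed for the cofactor and for xanthine oxidation were above background, among them Xdh (9.82 ± 0.12) and Mocs2 (9.62 ± 0.30). Mocs2, which makes part of the cofactor, was lowest in replicate 2 (9.25), where Aox1 was among the highest.

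Aldo-keto reductases were above background for 9 of 11 genes. Akr1a1, an aldehyde reductase that also serves vitamin C synthesis in rats, had 11.38, 11.28, 11.30 and 11.25 (11.30 ± 0.05). Akr1c14, the 3-alpha-hydroxysteroid dehydrogenase of rat liver, had 11.16, 10.69, 10.92 and 11.19 (10.99 ± 0.23). Replicate 2 was lowest, and the SD without it was 0.15. A further probe set of Akr1c14 put the rats in the same order, with 10.75, 10.34, 10.62 and 10.84. Akr1c1 had 9.42, 8.49, 9.10 and 8.73 (8.93 ± 0.41), a 1.90-fold range with replicate 1 highest and replicate 2 lowest. The related Akr1c13 spread little (10.06 ± 0.07), and Akr1c3 was flat at 8.49. The Akr1c genes resemble each other in sequence, and how far their probes separate them was not tested. Akr1e2 had 10.05 ± 0.06. Aldose reductase (Akr1b1) was flat at 8.40, and its relatives Akr1b7 and Akr1b8 were flat and below background at 7.45 and 7.66.

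Akr7a3, which reduces the dialdehyde of aflatoxin, had 11.15, 10.84, 10.32 and 10.72 (10.76 ± 0.34), a 1.78-fold range. Replicate 1 was highest and replicate 3 lowest, and without replicate 3 the SD was 0.22. Its relative Akr7a2, which reduces succinic semialdehyde, was flat at 10.33. Nqo1, the quinone reductase that is a standard target of the transcription factor NRF2, was also highest in replicate 1, with 9.94, 8.48, 7.91 and 8.23. Its values in replicates 3 and 4 lay below the background level, so their order and a fold against them are not measured. Of the 10 NRF2-linked genes listed, 10 were above background and 8 of these were not flat. Replicate 1 was highest for 6 of the 8, among them the 2 brightest of the list, Txnrd1 (10.23 against 9.96 to 10.08) and Gclm (10.31 against 9.68 to 9.98). Over all genes above background and not flat, 24.7% were highest in replicate 1. A common regulator of these genes was not tested.

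**Figure D2:**
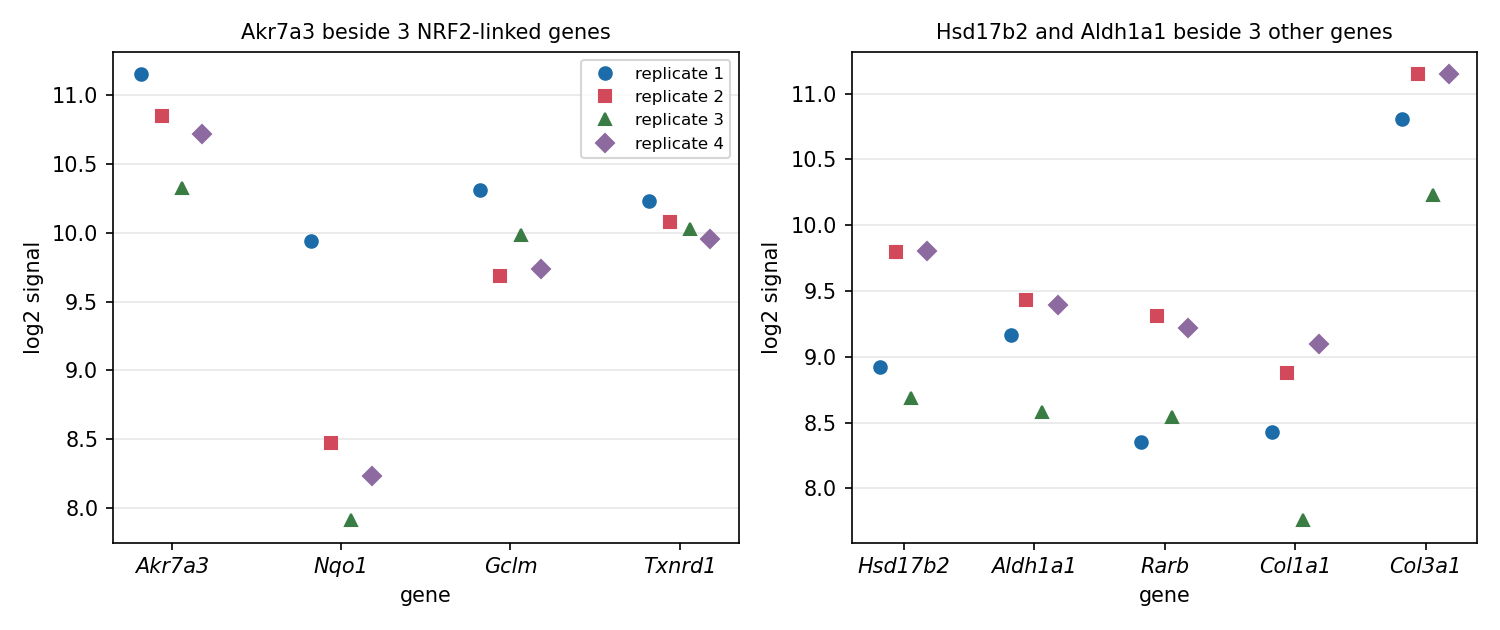
Log2 signal (vertical axis) with 1 marker per rat, for Akr7a3 beside Nqo1, Gclm and Txnrd1 on the left, and for Hsd17b2 and Aldh1a1 beside Rarb, Col1a1 and Col3a1 on the right. Replicate 1 is highest for all 4 genes on the left. Replicates 2 and 4 are above replicates 1 and 3 for all 5 on the right. The partner genes drawn are a selection, Rarb after its values were seen, so the shared order does not describe their lists. Replicate 1 was highest for 6 of the 8 NRF2-linked genes above background and not flat. Gclc was highest in replicate 2 and Nqo2 in replicate 3. Of genes not drawn on the right, Retsat was lowest in replicate 2 and the stellate cell marker Acta2 highest in replicate 3.

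Steroid dehydrogenases were above background for 12 of 16 genes, 8 of them in the brightest 10%. Hsd11b1, which regenerates corticosterone in the lumen of the endoplasmic reticulum, had 12.42, 12.79, 12.75 and 12.72 (12.67 ± 0.17), with replicate 1 below the other rats. H6pd, which supplies NADPH to that lumen, was also lowest in replicate 1, with 9.64, 9.99, 9.83 and 10.13. Hsd11b2, the kidney enzyme that inactivates corticosterone, was just above background at 8.47 ± 0.04. Hsd3b5, a 3-ketosteroid reductase of male rat liver, had 12.18, 12.07, 12.16 and 12.08 (12.12 ± 0.06), so the rats lay close together. Hsd3b7 of bile acid synthesis had 11.06 ± 0.16, and Hsd3b1, which acts in adrenal and gonad, was below background at 7.95 ± 0.03. A probe set shared by Hsd3b1, Hsd3b2 and Hsd3b3, not counted among the 60 genes, was below it too (8.03 ± 0.04).

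Hsd17b2, which inactivates estradiol and testosterone by oxidation, had the widest SD of the set. Its signals were 8.92, 9.80, 8.68 and 9.80 (9.30 ± 0.58). Replicates 2 and 4 lay above replicates 1 and 3 with a gap between the pairs, and the range was 2.17-fold. The retinoic acid receptor gene Rarb showed the same division, with 8.35, 9.31, 8.54 and 9.22, and Aldh1a1 had its higher values in the same pair of rats. Rarb was chosen after its values were seen, and other genes of retinoid handling differed from it. Retsat, which saturates retinol, was lowest in replicate 2 (11.51 against 12.01 to 12.02), and Rara was lowest in replicate 4 (8.98 against 9.03 to 9.11). The 6 genes of that list above background and not flat were lowest in replicates 1 to 4 for 2, 1, 1 and 2 genes. Collagen genes showed the division of Hsd17b2, with 8.43, 8.88, 7.76 and 9.09 for Col1a1 and 10.80, 11.15, 10.23 and 11.15 for Col3a1. The Col1a1 value in replicate 3 lay below the background level. Of 9 measured stellate cell and fibroblast markers, 5 were above background, and replicate 3 was lowest for 4 of the 5. The summed log2 level of the 9 was 77.5, 78.9, 75.6 and 78.9 in replicates 1 to 4. That sum includes Col1a1, Col3a1 and markers below background, so it is not a measure separate from the collagen genes. The markers Des (8.09, flat), Lrat (8.10, flat), Pdgfrb (7.74 ± 0.03) and Dcn (8.15 ± 0.19) were below background. The part of these cells in the signals of Hsd17b2 and Aldh1a1 was not tested.

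The other HSD17B genes differed in signal and in spread. Hsd17b10, a mitochondrial enzyme of isoleucine breakdown, had 11.44, 10.94, 11.63 and 11.21 (11.31 ± 0.30), lowest in replicate 2. Hsd17b6, which acts on androgen metabolites, had 10.80, 10.34, 10.77 and 10.17 (10.52 ± 0.31), with replicates 1 and 3 above replicates 2 and 4. That is the opposite division to Hsd17b2. Hsd17b11 of lipid droplets (11.90 ± 0.05), the peroxisomal Hsd17b4 (11.42 ± 0.09) and Hsd17b12 of fatty acid elongation (10.11 ± 0.12) were bright, with smaller SDs than these. Hsd17b13, also of lipid droplets, had 9.17 ± 0.05, and Hsd17b8, linked to mitochondrial fatty acid synthesis, 9.05 ± 0.01.

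The gonadal Hsd17b1 (7.69, flat) and Hsd17b3 (8.02 ± 0.04) lay below background. So did 6 of 6 measured markers of steroid-making adrenal and gonad cells, among them Star (7.74) and Cyp17a1 (7.62). Hsd17b7, which acts in cholesterol synthesis, was below background too at 8.19, 7.84, 8.15 and 7.91 (8.03 ± 0.17). Replicate 2 had the lowest value on both of its probe sets, but below the level the order of the rats is not measured. Among genes of steroid reduction, hydroxylation and conjugation, 5 of 8 were above background, led by Sult1e1 (12.27 ± 0.23) and the corticosteroid carrier Serpina6 (11.58 ± 0.20). NADPH supply had 7 of 7, led by Idh1 (11.85 ± 0.02) and Nnt (10.49 ± 0.03).

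Retinol dehydrogenases were above background for 4 of 4 genes. Rdh7, a microsomal retinol dehydrogenase, had 12.10, 12.01, 12.31 and 12.07 (12.12 ± 0.13), highest in replicate 3. Rdh16, a related microsomal enzyme, had 9.98, 9.45, 10.73 and 9.58 (9.93 ± 0.58), a 2.43-fold range, the widest of the 60 genes. Replicate 3 was highest for Rdh16 as for Rdh7 and replicate 2 lowest for both. How far the probes separate these related genes was not tested, nor was it for the Hsd3b and Aldh1a genes. The SD of Rdh16 fell to 0.27 without replicate 3. Rdh10 had 9.09 ± 0.03 on its brighter probe set and a flat 7.71 on the other, below background, and Rdh11 was flat at 8.80.

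The DHRS genes with the highest signals were Dhrs4 and Dhrs3, while Dhrs9 lay just above background (8.27 ± 0.03). Dhrs4 of peroxisomes had 10.24, 10.19, 10.41 and 10.21 (10.26 ± 0.10) and Dhrs3 had 10.08, 10.12, 10.21 and 10.17 (10.15 ± 0.05). Both were highest in replicate 3. Dhrs1 (8.84 ± 0.04), Dhrs7b (8.56, flat) and Dhrs11 (8.86, flat) were lower, and Dhrs13 (8.15, flat) and Dhrs7c of muscle (7.47 ± 0.06) were below background. Among carbonyl reductases, Cbr1 (8.27, flat) lay just above the level, and Cbr4 of mitochondria (8.06, 8.19, 8.16 and 8.15) and Cbr3 (7.54, flat) lay below it. Partner genes of retinoid handling were above background for 8 of 12, led by the plasma carriers Ttr (14.32 ± 0.02) and Rbp4 (13.80, flat). Cyp26a1, which degrades retinoic acid, was not (7.49, flat).

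The placing of genes within 0.3 log2 units of the level is uncertain. Just above it were Cbr1, Dhrs9 (8.27 ± 0.03), Akr1b1, Hsd11b2 and Akr1c3. Just below it were Hsd3b1, Hsd17b3, Hsd17b7, Aldh1a2, Cbr4 and Dhrs13. The control probe sets for Bacillus transcripts had means of 6.48 to 7.75, so a gene below the level may still be transcribed.

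Over all 60 genes, 45 were above background (75%, against 50.8% of all named genes) and 27 were in the brightest 10%. By place in the cell, 16 of 20 genes of the endoplasmic reticulum were above background (80.0%) and 10 were in the brightest 10%. The cytosol had 15 of 23 above background with 9 in the brightest 10%, and mitochondria 6 of 8 with 4. Both peroxisomal genes were above it, and so were 6 of 7 found in other or several places. These places are textbook assignments and not measurements.

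The spread between rats was wide for a minority of genes. An SD of at least 0.2 log2 units was found in 10 of the 45 genes above background (22.2%), where 5.31% of all genes above background reached it. The 10 were Hsd17b2, Rdh16, Akr1c1, Aldh1a1, Akr7a3, Adh1c, Hsd17b6, Hsd17b10, Akr1c14 and Aldh7a1. Of the P450 genes, 12 of 30 reached it (40.0%), and of the glutathione transferases 2 of 16 (12.5%), so a wide spread was not shown to be particular to the dehydrogenases. The median SD of the 45 genes was 0.066, against 0.032 for all genes above background. Without flat genes it was 0.099 against 0.056. Flat genes cannot reach an SD of 0.2, and they were 8 of the 45, against 35.3% of all genes above background. The 45 genes were also brighter, with a median signal of 10.15 against 8.84. Shares at matched signal were not compared.

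**Figure D3:**
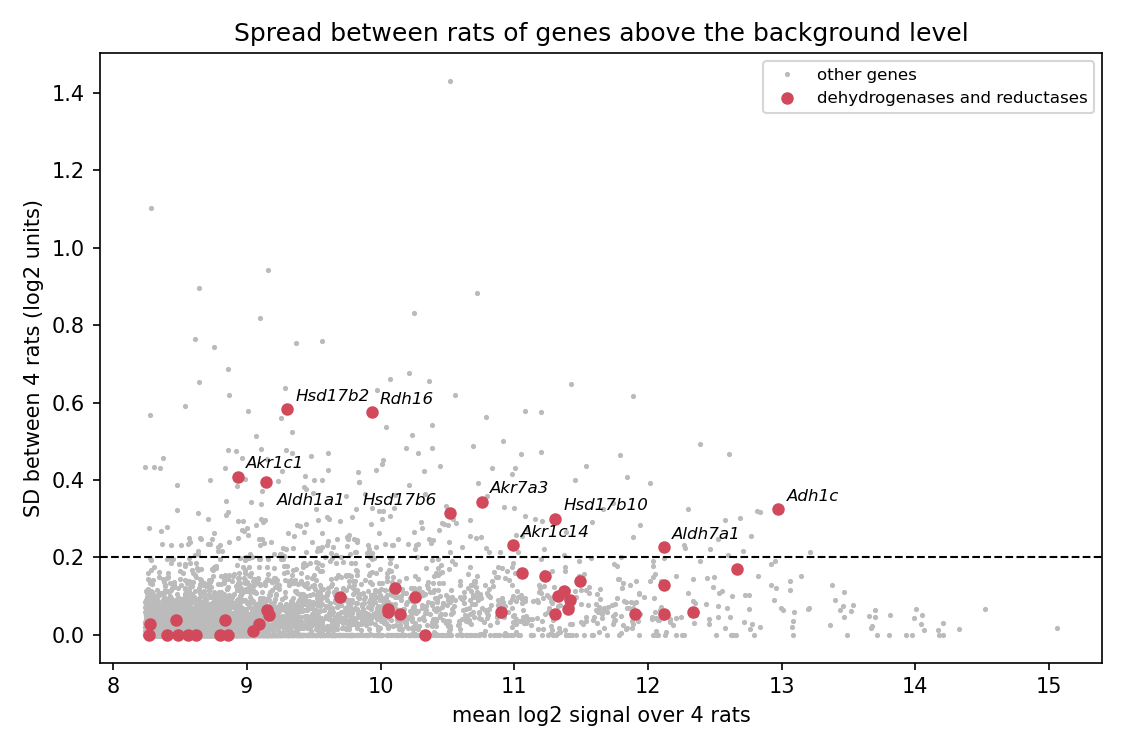
SD between 4 rats (vertical axis, log2 units) against mean log2 signal (horizontal axis) for all genes above background in grey and the 45 dehydrogenase and reductase genes in red, with a dashed line at 0.2. The 10 labelled genes lie above the line, from Hsd17b2 at 0.58 to Aldh7a1 at 0.23, and the row of points at 0 are flat genes.

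The 10 genes with a wide spread did not share 1 lowest rat. Replicate 2 was lowest for Adh1c, Akr1c1, Akr1c14, Hsd17b10 and Rdh16. Replicate 3 was lowest for Hsd17b2, Aldh1a1 and Akr7a3, replicate 1 for Aldh7a1 and replicate 4 for Hsd17b6. Among all 37 genes above background and not flat, 19 were lowest in replicate 2, against 28.7% of all such genes. Replicates 1, 3 and 4 were lowest for 7, 5 and 6, against 29.5%, 18.5% and 23.3%. Replicate 3 was highest for 15 of the 37, against 32.9%. Replicates 1, 2 and 4 were highest for 10, 6 and 6, against 24.7%, 21.7% and 20.8%.

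The size of the shift in replicate 2 was small. The median deviation of the 37 genes from their own means was -0.06 log2 units in replicate 2, 0.02 in replicate 1, 0.04 in replicate 3 and -0.02 in replicate 4. Over all 3423 such genes it was between -0.004 and 0.01 in each rat. After quantile normalization, the median in replicate 2 over all 45 genes, flat ones included, went from -0.025 to -0.0052. P450 genes of families 1 to 4 were lowest in replicate 2 as well, for 14 of 26, and glutathione transferases in replicate 1, for 7 of 11. Some genes lay above their means in replicate 2, among them Hsd17b2, Aldh1a1, Hsd11b1 and Aox1. With 1 array per rat and a fluidics module of its own for each array, the rat, its array and the module cannot be told apart.

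**Figure D4:**
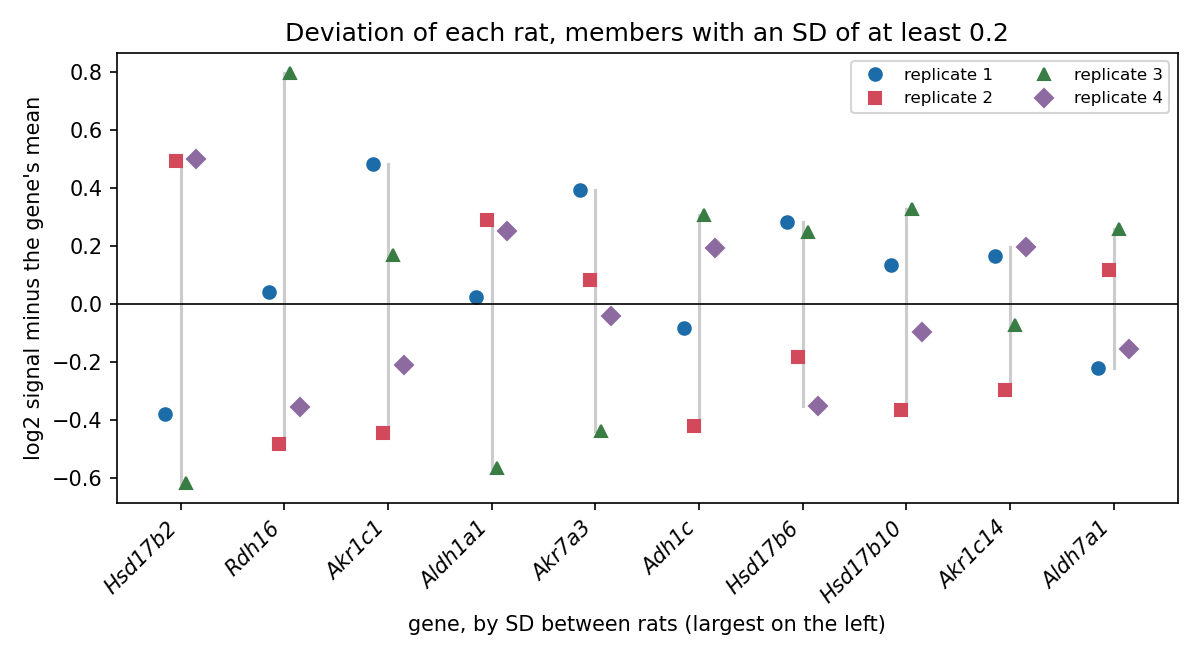
Deviation of each rat from the gene's mean (vertical axis, log2 units) for the 10 genes with an SD of at least 0.2, ordered by SD from the left, with 1 marker per rat and a grey line over the range. Replicate 2 is the lowest marker for 5 of the 10 genes and, with replicate 4, the highest for Hsd17b2 and Aldh1a1.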

How the data were processed

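Liver RNA of 4 rats was measured on 4 Affymetrix arrays (RAE230A per the file headers, while the labels' protocol names RAE230-2). The authors deposited a log2 signal for each of 15923 probe sets. Their processing notes list affy 1.12.2 under R 2.4.1 and both RMA and GCRMA. Which of these methods gave the values is unstated in the sources used here. The array medians were all 8.11, so the authors had put the arrays on a common scale, and the values were used as deposited. All arrays share 1 lot and 1 scan day per the file headers. The number of arrays, 4, limits the precision of every SD. Probe sets with 1 gene symbol in the platform annotation (12789) were used, and all 60 symbols match RefSeq's present ones.

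There is 1 group, so no comparison between groups was tested, and counts are set beside those of all named genes. Myh1 was left out of the background genes with its earlier results known. Any of the 60 genes could be named by the rule. Values in every rat are given for the 2 brightest of each family, for SDs of at least 0.2 and for genes with 1 rat far from the rest, and some others were added after their values were seen. The genes, lists, levels and the interest in replicate 2 were chosen with earlier results of these data known. Of partner lists the 2 brightest were named, and others after their values were seen. The calculations were tested on simulated data. Python 3.11.15, numpy 2.4.6, pandas 2.3.3 and matplotlib 3.10.9 were used. Alternatives covered the background level, the probe set per gene, the scaling, the measure of spread and leaving out each rat.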

Additional observations from a re-analysis of the deposited data

Results flagged for a closer look

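Aldh16a1 in replicate 1 stood apart, at a log2 signal of 9.25 against 9.11 to 9.13 in the other rats, although all 4 values lay close together. The gap from that rat to its neighbour was compared with the spread of the 4 values for 45 genes that were not flat and for 12 medians of gene groups. About 1 in 20 sets of values would be marked by chance, and 1 was.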

How the results depend on the processing

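The number of genes above background was 43 at the 98th percentile and with Myh1 added, 44 without probe sets of the s, x and a kinds, which leave Hsd17b8 unmeasured, and 45 in the other 8 settings. Cbr1 and Dhrs9 fell below the level in the first 2 of these settings. Of the 60 genes, 57 kept their side in each of the 11 settings, and Hsd17b8 kept it in the 10 that measured it. Not every setting could move a gene. Centring the arrays leaves the mean of each gene and the background level as they were, so it could not change a side. Another way of combining probe sets could alter only the 4 genes with several. The median SD of 0.066 became 0.099 without flat probe sets and 0.14 with the range as the measure, and ran from 0.060 to 0.072 with 1 rat left out. The number of genes with an SD of at least 0.2 was 18 with a limit of 0.1 and 7 with a limit of 0.3. The share of all genes above background is not given for these other limits, so the counts describe these genes only. With 1 rat left out and the limit at 0.2, the number ran from 8 to 11 of 45. The share of all genes above background then ran from 4.997% to 5.557%. Genes lowest in replicate 2 numbered 18 to 23 over the alternatives. A gene lowest in replicate 2 stays lowest there when another rat is left out. Those settings could thus add to the count but hardly lower it. The share of all genes lowest in replicate 2 is not given for the alternatives, so the range describes these genes only. The median deviation of the 45 genes in replicate 2, flat ones included, was -0.025. It was -0.0052 after quantile normalization and -0.056 without flat probe sets, and ran from -0.036 to -0.021 with 1 other rat left out. The cause was not tested. Signal over background limits what can be said of the 15 genes below the level. No paired analysis was possible because there is 1 group.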
